A study of Homo sapiens with 6 samples.

Results

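The 10 genes described here, CDKN1C, KCNQ1OT1, PEG3, PEG10, MEST, NNAT, PLAGL1, GNAS, SNRPN and ZIM2, are imprinted genes linked to fetal and tissue growth, other than the IGF2 and H19 locus. They were taken from the gene count table by name, and all 10 were found among its 57341 gene names. One of them, NNAT, had no count in any library, and the other 9 passed the filter on low counts and were tested.

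The RNA came from H295R, a human adrenocortical carcinoma cell line, and from H295R-PM-Ptc+, cells of the same line that were sorted for the Hedgehog receptor Ptch1 at the plasma membrane and then grown up. Both were kept without treatment in the same DMEM/F12 medium with NuSerum and ITS+, and each gave 3 replicates. No source used here says how many sorts the H295R-PM-Ptc+ replicates came from, so the comparison is between 1 parental line and 1 sorted derivative of it. The labels give polyA RNA as the molecule and a total RNA library kit, whereas the methods give an mRNA kit.

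The group names of the libraries could not be settled from the counts. PTCH1, which should be raised in the sorted cells, was lower in libraries labelled H295R-PM-Ptc+, at 12.2 ± 2.19 CPM (mean ± SD, n = 3; CPM, a gene's fragments relative to the scaled total of its library) against 21.3 ± 2.56 (log2 fold change -0.81, SE 0.147, edgeR adjusted p = 0.0207). Its adjusted p was 0.0799, 0.0921 and 0.0618 without replicate 2 or 3 labelled H295R or replicate 2 labelled H295R-PM-Ptc+, and over the 6 fits that each leave out 1 library the log2 difference ran from -0.91 to -0.67. The table of normalized values that accompanies the study was read for 942 genes. Each of its 6 columns lay closest to the count column that has its run code but the opposite group name. Closest means the smallest SD, over these genes, of the normalized value minus the log2 count. Groups are therefore named throughout as "labelled H295R" and "labelled H295R-PM-Ptc+", and every direction between the groups would turn if the names were exchanged in the count table.

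The 6 libraries held 23264403 to 25813247 counted fragments each. Adrenocortical markers were present, with summed levels of 965.2 to 1239.8 CPM in libraries labelled H295R, against 1039.8 to 1322.4 CPM in those with the label H295R-PM-Ptc+, and 8 of 9 markers were above 3 counts in at least 1 library. Of these, CYP21A2, the 21-hydroxylase gene of cortisol synthesis, alone passed the test (log2 fold change 0.88, SE 0.126, edgeR adjusted p = 0.0067). With the replicate number as a block 3 markers passed, CYP21A2 and STAR (0.41, adjusted p = 3.91e-06) as higher and CYP11A1 (-0.24, adjusted p = 0.001) as lower. Fibroblast, endothelial and blood markers summed to at most 11.2, 0.648 and 2.00 CPM in any library. The blood markers PTPRC and HBB had no count. The 5 fibroblast, 5 endothelial and 5 blood markers reached higher sums in libraries labelled H295R-PM-Ptc+ (9.23 to 11.2, 0.509 to 0.648 and 1.68 to 2.00 CPM) than in those labelled H295R (8.03 to 9.29, 0.197 to 0.335 and 0.809 to 1.34 CPM), and the part of these low levels in the results below was not tested. The libraries are of bulk RNA, so a smaller share of cells with a transcript and less of it in each cell cannot be told apart.

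Imprinted genes carry methylation marks set in the egg or the sperm, so that the maternal or the paternal copy is used. Paternally expressed genes such as PEG3, PEG10 and MEST are mostly known for promoting fetal and placental growth, and maternally expressed CDKN1C for restraining it. In adrenocortical carcinoma the chromosome 11p15 domain is often altered, with high IGF2 and low CDKN1C as the usual pattern. Counts summed per gene name do not say which parental copy was transcribed.

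Of the 9 tested genes, PLAGL1 alone passed the test between the groups, with a level 1.28-fold that of the other group in libraries labelled H295R-PM-Ptc+, while 3.73% of all 16710 tested genes passed. The log2 fold changes of the 9 genes ran from -0.76 (CDKN1C) to 0.36 (PLAGL1), with 4 above 0 and 5 below, and their median was -0.10 against 0.00 for all tested genes. The same-numbered replicates of the groups deviated together, most clearly replicate 1. In a fit with the replicate number as a block 5 of the 9 genes passed, beside 22.5% of all tested genes. With the block PLAGL1 and PEG10 were higher and CDKN1C, KCNQ1OT1 and GNAS lower. The values of the groups did not overlap for 3 of the 9 genes, PLAGL1, CDKN1C and GNAS, as for 23.5% of all tested genes. The genes were chosen with earlier results of these data known, so these shares do not test them as a set.

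**Figure D1:**
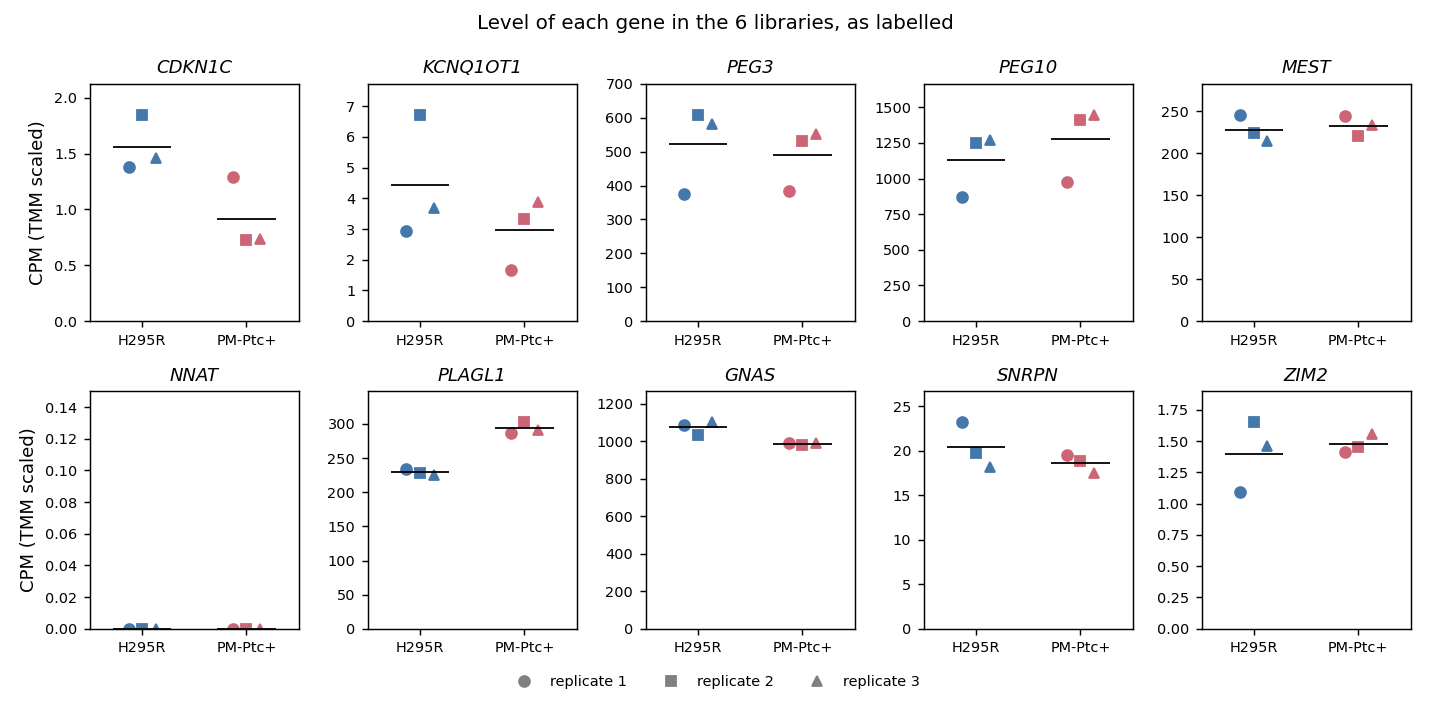
Level of each of the 10 genes in CPM on TMM-scaled library sizes (vertical axis, from 0, with its own range for each gene) in libraries labelled H295R (blue) and H295R-PM-Ptc+ (red, PM-Ptc+ on the axis). Symbols mark replicates 1, 2 and 3 and bars the mean of 3. PLAGL1 lies higher in every library labelled H295R-PM-Ptc+, replicate 1 lies low in both groups for PEG3, PEG10 and KCNQ1OT1, and NNAT lies at 0.

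PLAGL1 encodes a zinc finger transcription factor that can arrest the cell cycle and that is overexpressed in transient neonatal diabetes. It lies on the minus strand at chr6:143940300-144064599 (hg38) and has an imprinted promoter, used on the paternal copy, and a promoter further upstream that is used on both copies. The upstream bases of both promoters are shown from the gene's own strand, since the counts pool the transcripts of both. The sequences were taken from RefSeq (GRCh38.p14), whose table holds windows of 300 bases around 20 transcript starts of 4 of the 10 genes, PLAGL1, MEST, SNRPN and GNAS. The first runs from chr6:144064600-144064849 and the second from chr6:144008417-144008509, the part of the imprinted window that lies outside annotated exons.
PLAGL1 upstream promoter: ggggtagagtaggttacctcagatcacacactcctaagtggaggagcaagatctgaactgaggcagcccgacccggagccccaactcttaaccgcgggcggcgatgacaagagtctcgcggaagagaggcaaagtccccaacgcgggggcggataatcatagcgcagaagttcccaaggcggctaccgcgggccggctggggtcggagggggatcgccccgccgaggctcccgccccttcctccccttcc
PLAGL1 imprinted promoter: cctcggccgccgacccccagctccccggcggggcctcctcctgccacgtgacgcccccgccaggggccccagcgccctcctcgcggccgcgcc
The window of the imprinted promoter held 39 CpG dinucleotides in 300 bases and that of the upstream promoter 31, against a median of 14 over 35116 promoter windows. The letters TGCCGC, or GCGGCA for the opposite strand, are those bound by ZFP57, a zinc finger protein that keeps methylation at imprinting marks when the C of the CpG is methylated. They occurred at 2 overlapping stretches of the imprinted PLAGL1 window and not in the upstream window. Over both strands, 8 of the 20 windows of these 4 genes held them (40.0%) and 5878 of all 35116 windows did (16.7%), where several windows of 1 gene overlap and share a match. The letters contain a CpG, and the 20 windows held a median of 17 CpG against 14 over all windows. The difference between the shares was not tested. Of 10 distinct matches, 6 are shown as examples, 2 of PLAGL1, 2 of MEST that share letters, and 1 each of SNRPN and GNAS. Each line has 1 match in capitals with its neighbouring bases, on the gene's own strand, and a second match in the same stretch has a line of its own.
PLAGL1 chr6:144008343-144008368: tcctcttggcTGCCGCgggcggcaaa
PLAGL1 chr6:144008335-144008360: gctgccgcggGCGGCAaagcccacgg
MEST chr7:130492075-130492100: cgctccgcgcTGCCGCggcaaccagc
MEST chr7:130492079-130492104: ccgcgctgccGCGGCAaccagcacac
SNRPN chr15:24954953-24954978: gtgcgaagccTGCCGCtgctgcagcg
GNAS chr20:58839510-58839535: ggggctagctTGCCGCttgctccttg
These letters are a match in sequence and nothing more, since neither methylation nor binding was measured in these libraries.

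PLAGL1 was at 233.6, 228.6 and 225.1 CPM in replicates 1, 2 and 3 labelled H295R and at 287.1, 302.4 and 291.3 CPM in those labelled H295R-PM-Ptc+. Every library labelled H295R-PM-Ptc+ was above every library labelled H295R, and the replicates of each group lay close together. The log2 fold change was 0.36 (SE 0.0693, edgeR adjusted p = 0.0265, and 1.89e-05 with the replicate block), from 229.1 ± 4.27 to 293.6 ± 7.94 CPM (SD, n = 3). With 1 library left out the log2 fold change stayed between 0.33 and 0.37. The edgeR adjusted p was then under the threshold of 0.05 only without replicate 1 labelled H295R (0.0234). It was 0.0985 and 0.146 without replicates 2 and 3 labelled H295R, and 0.0505, 0.135 and 0.133 without replicates 1, 2 and 3 labelled H295R-PM-Ptc+. The number of all genes passing also fell in the fits that lost the call, from 624 to between 219 and 430. It was 810 without replicate 1 labelled H295R. How far the lost calls of PLAGL1 go with this general fall was not tested. HYMAI, the noncoding RNA that starts at the imprinted PLAGL1 promoter, had no count in any library.

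CDKN1C, a maternally expressed inhibitor of cyclin-dependent kinases, lies on the minus strand at chr11:2883213-2885881 and was among the least abundant of the genes. It had 33, 47 and 36 counts in the 3 libraries labelled H295R and 33, 18 and 17 in those labelled H295R-PM-Ptc+, which were 1.38, 1.85 and 1.46 CPM against 1.29, 0.724 and 0.734 CPM. The groups did not overlap, but replicate 1 differed little between them (log2 ratio -0.10) and replicates 2 and 3 more (-1.35 and -0.99). The log2 fold change of -0.76 (SE 0.275) had an edgeR adjusted p of 0.191, and of 0.0457 with the replicate block.

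KCNQ1OT1, a long noncoding RNA, is transcribed from the paternal copy through part of KCNQ1 in the opposite direction and is known to silence CDKN1C on the same chromosome. It is a single exon of 91667 bases at chr11:2608328-2699994. Its 70, 171 and 91 counts in libraries labelled H295R, against 43, 83 and 90 in those labelled H295R-PM-Ptc+, were 2.93, 6.73 and 3.68 CPM and 1.68, 3.34 and 3.89 CPM. The groups overlapped, and the highest value, in replicate 2 labelled H295R, stood well above the other 5. Its log2 fold change was -0.59 (SE 0.362, edgeR adjusted p = 0.462, and 0.0357 with the replicate block), and it ran from -0.84 to -0.16 when 1 library was left out. Within the replicate numbers the log2 ratios were -0.80, -1.01 and 0.08, so the third pair did not share the direction. KCNQ1, the host gene on the other strand, had 1 to 6 counts per library, and how the counting treated strand at this pair is uncertain. PHLDA2, a maternally expressed gene of the domain that limits placental growth, had 0 or 1 count.

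PEG10, derived from a retrotransposon and needed for the placenta, lies at chr7:94656325-94669695 on the plus strand and had the highest mean CPM of the 10 genes in both groups, although GNAS was above it in replicate 1 of each. Its level was 872.0, 1246.5 and 1270.4 CPM in replicates 1, 2 and 3 labelled H295R and 975.4, 1409.3 and 1449.3 CPM in those labelled H295R-PM-Ptc+. Replicate 1 was the lowest of its group in both, so that the groups overlapped, yet each library labelled H295R-PM-Ptc+ was above its same-numbered counterpart, with log2 ratios of 0.16, 0.18 and 0.19. The log2 fold change of 0.18 therefore had an SE of 0.181 and an edgeR adjusted p of 0.698 without the block, and an SE of 0.0423 and an adjusted p of 0.00674 with it. Without the block it ran from 0.02, without replicate 1 labelled H295R, to 0.33 when 1 library was left out. SGCE, the paternally expressed gene that starts 0.1 kb from PEG10 on the other strand, differed by a log2 ratio of 0.14 (SE 0.0866, adjusted p = 0.485, and 0.0964 with the block).

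PEG3, a paternally expressed zinc finger gene with a role in growth and maternal behaviour in mice, showed the same low replicate 1 but no common direction between the groups. It lies on the minus strand at chr19:56810083-56840728 and was at 375.0, 609.3 and 582.4 CPM in libraries labelled H295R, against 382.6, 531.8 and 552.3 CPM in those labelled H295R-PM-Ptc+. The log2 fold change was -0.10 (SE 0.194, edgeR adjusted p = 0.870, and 0.240 with the block) and changed sign when replicate 2 labelled H295R (0.03) or replicate 1 labelled H295R-PM-Ptc+ (0.05) was left out. ZIM2, a zinc finger gene that shares its first exons with PEG3 in human (1037 exon bases in the annotation used here), was low. Its 26, 42 and 36 counts in libraries labelled H295R, against 36 in each of those labelled H295R-PM-Ptc+, were 1.09, 1.65 and 1.46 CPM and 1.41, 1.45 and 1.56 CPM. The groups overlapped, with a log2 fold change of 0.07 (SE 0.213, adjusted p = 0.921). The methods list no option that assigns a fragment to several genes, so fragments on the shared exons would go to neither gene. Whether the options were used as listed was not tested, so the ZIM2 level is uncertain beside the much higher PEG3 level.

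MEST, a paternally expressed gene of the alpha/beta hydrolase family that is active in growing fetal tissue, lies at chr7:130486171-130506296. It was at 246.2, 223.7 and 214.2 CPM in libraries labelled H295R, against 244.0, 220.4 and 233.5 CPM in those labelled H295R-PM-Ptc+. The groups overlapped over their whole range, and the log2 fold change of 0.03 had an SE of 0.0825 (edgeR adjusted p = 0.912). MESTIT1, the antisense RNA of the domain, had 0 or 1 count.

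GNAS encodes the alpha subunit of the stimulatory G protein that couples receptors such as the ACTH receptor of the adrenal cortex to adenylyl cyclase. Several transcripts with different parental use, from both copies in most tissues for the G protein itself, are pooled under its name at chr20:58839718-58911192. The level was 1087.4, 1033.9 and 1100.2 CPM in libraries labelled H295R, against 989.1, 978.8 and 988.5 CPM in those labelled H295R-PM-Ptc+. The latter were all below the former and varied little, from 1073.9 ± 35.2 to 985.4 ± 5.79 CPM (SD, n = 3). This log2 fold change of -0.12 (SE 0.0727) had an edgeR adjusted p of 0.442, and of 0.0485 with the block. Its antisense transcript GNAS-AS1 was at 0.986 ± 0.0331 and 0.857 ± 0.0805 CPM (log2 fold change -0.20, SE 0.215, adjusted p = 0.743).

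SNRPN, which encodes a spliceosomal Sm protein and lies at the imprinting centre of the Prader-Willi region (chr15:24823647-24978723), was at 23.2, 19.8 and 18.2 CPM in libraries labelled H295R, against 19.5, 18.9 and 17.5 CPM in those labelled H295R-PM-Ptc+. The groups overlapped, and all 3 same-numbered pairs were lower in libraries labelled H295R-PM-Ptc+, by log2 ratios of -0.25, -0.07 and -0.06. A log2 fold change of -0.13 was found (SE 0.108, edgeR adjusted p = 0.613, and 0.229 with the block). In the annotation 1147 of its exon bases are shared with SNURF or SNHG14, so its level is uncertain in the same way as that of ZIM2. NNAT, a paternally expressed membrane proteolipid gene of brain and endocrine tissue at chr20:37521215-37523693, had 0 counts in all 6 libraries. A count of 0 allows up to 3 counts, which was 0.116 to 0.129 CPM depending on the library and covers counting error only. BLCAP, the gene whose intron holds NNAT, was well expressed at 69.2 ± 3.38 and 70.1 ± 4.37 CPM (SD, n = 3; log2 fold change 0.02, SE 0.0787, adjusted p = 0.943).

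**Figure D2:**
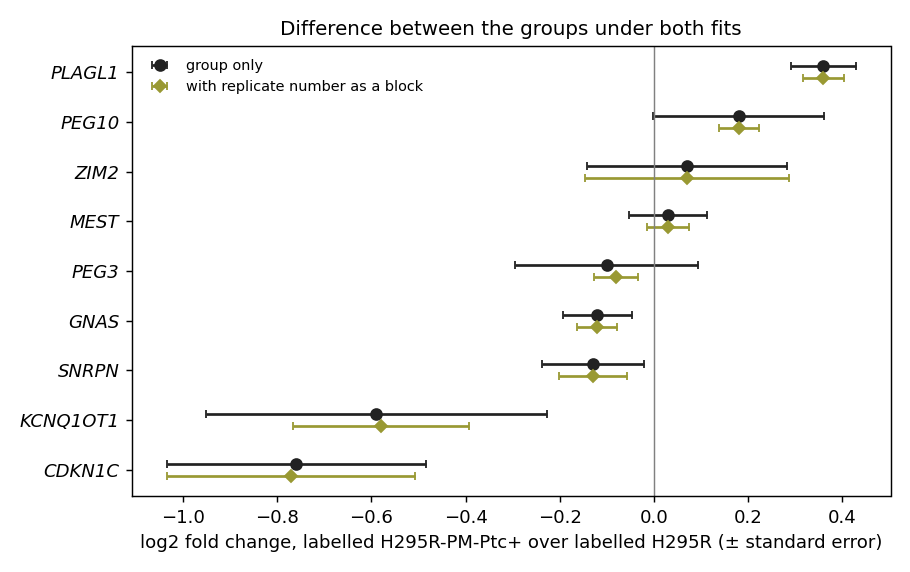
Log2 fold change of the 9 tested genes, labelled H295R-PM-Ptc+ over labelled H295R (horizontal axis), from the edgeR fit with group only (black) and with the replicate number as a block (green); bars are standard errors. The estimates barely differ between the fits, while the bar of PEG10 shrinks from 0.181 to 0.0423 and that of PEG3 from 0.194 to 0.0472.

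Across genes, levels were compared per kilobase of exon not shared with another gene on the same strand. PEG10 was highest, at 168.9 ± 33.4 CPM per kb (SD, n = 3) in libraries labelled H295R, against 191.1 ± 39.3 in those labelled H295R-PM-Ptc+. GNAS followed at 80.6 ± 2.64 and 74.0 ± 0.434 CPM per kb, then PEG3 at 63.4 ± 15.6 and 59.3 ± 11.2, MEST at 49.2 ± 3.55 and 50.2 ± 2.55, PLAGL1 at 27.0 ± 0.503 and 34.6 ± 0.934, and SNRPN at 11.5 ± 1.44 and 10.5 ± 0.583. PEG3 and MEST overlapped in both groups because of the low PEG3 level in replicate 1, and the other neighbours among these 6 did not overlap. Far below them were ZIM2 at 0.779 ± 0.16 and 0.818 ± 0.0422 CPM per kb, CDKN1C at 0.604 ± 0.0975 and 0.354 ± 0.125, and the long KCNQ1OT1 at 0.0485 ± 0.022 and 0.0324 ± 0.0125. ZIM2 and CDKN1C overlapped in libraries labelled H295R and not in those labelled H295R-PM-Ptc+. The G protein, retrotransposon-derived and zinc finger genes GNAS, PEG10 and PEG3 were thus among the most abundant tested genes per kilobase (percentiles 97.0, 99.1 and 96.0, with the other genes taken per kilobase of the exon length given in the table), and the growth inhibitor CDKN1C was at percentile 13.5.

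The low replicate 1 of PEG10, PEG3 and KCNQ1OT1 was followed up after these values had been seen, by testing replicate 1 against replicates 2 and 3 across both groups in the fit with group and replicate. The replicates carry the run codes 1801, 3001 and 3101 in the labels, the same codes in both groups, and what the codes stand for is not said. PEG10 was lower in replicate 1 by 0.54 on the log2 scale (log2 difference -0.54, SE 0.0459, edgeR adjusted p = 4.88e-07), with ratios to the mean of replicates 2 and 3 of 0.693 in libraries labelled H295R, against 0.682 in those labelled H295R-PM-Ptc+. PEG3 differed by -0.58 (SE 0.0514, adjusted p = 6.60e-07) and KCNQ1OT1 by -0.93 (SE 0.211, adjusted p = 0.0034). MEST was slightly higher in replicate 1 (log2 difference 0.14, SE 0.0471, adjusted p = 0.0374). PLAGL1 (0.00, adjusted p = 0.968) and GNAS (0.02, adjusted p = 0.806) had differences near 0. In all 4 of the 9 genes passed this test, beside 30.8% of all tested genes, so replicate 1 stood apart in a large part of the transcriptome. Differences of this kind went with transcript length: the median log2 difference of replicate 1 was 0.13 among the 4179 genes of shortest exon length and -0.13 among the 4178 of longest (1 in 4 genes each), and of the latter 39.8% passed as lower. The correlation of exon length with the difference across the 16710 genes was -0.35 (Spearman's rho), as a description, since all points come from the same 6 libraries. The 3 lower genes have 6689 (PEG10), 9278 (PEG3) and 91667 (KCNQ1OT1) exon bases, above the median of 4390 over the tested genes. MEST, called higher, has 4631. PLAGL1 with 8497 and GNAS with 13320 exon bases were longer than PEG10 and had differences near 0, and the part of length in the low replicate 1 of the other genes was not tested.

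**Figure D3:**
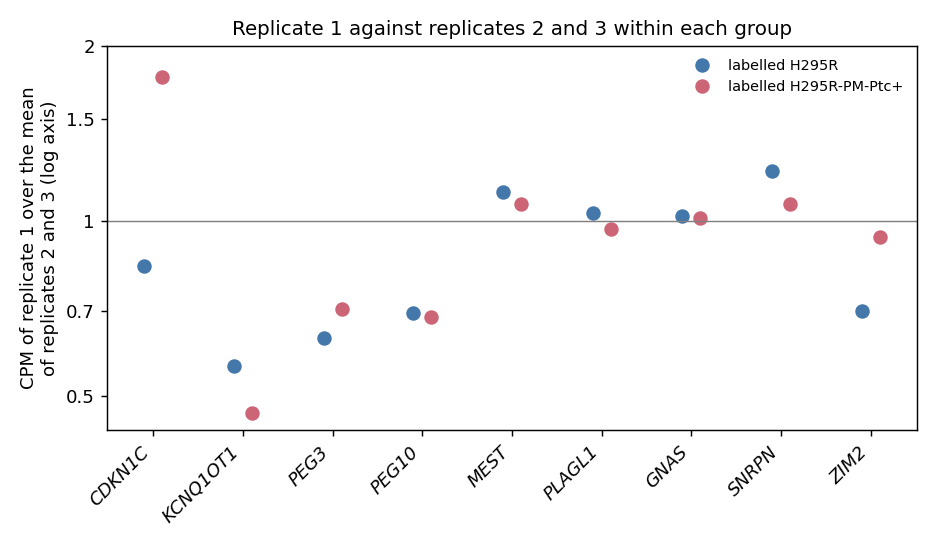
CPM of replicate 1 divided by the mean of replicates 2 and 3 of the same group (log axis) for the 9 tested genes, in libraries labelled H295R (blue) and H295R-PM-Ptc+ (red). KCNQ1OT1, PEG3 and PEG10 lie between 0.466 and 0.706 in both groups, PLAGL1 and GNAS near 1, and CDKN1C on opposite sides of 1.

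Genes near the 10 were taken from a list of 75 genes lying in the same 8 chromosomal domains, imprinted or not, of which 46 were tested. The list was chosen with earlier results of these data known, so the shares below do not test the domains as a set. Of the 46 tested genes 30 had a log2 fold change above 0 and 16 below, with a median of 0.08. The test was passed by 5 of them, beside 3.73% of all tested genes. With the replicate block 12 passed, beside 22.5% of all tested genes. CTSZ, which encodes a lysosomal cysteine protease and flanks the GNAS domain without being known as imprinted, was the largest change, from 9.79 ± 2.22 to 43.9 ± 4.93 CPM (SD, n = 3; log2 fold change 2.17, SE 0.154, edgeR adjusted p = 3.92e-04). STX11, a syntaxin gene that flanks PLAGL1, was higher at a very low level, with 5 to 7 counts in libraries labelled H295R and 14 to 17 in the others (log2 fold change 1.46, SE 0.306, adjusted p = 0.037, and 0.171 by DESeq2). MAGEL2, a paternally expressed gene of the Prader-Willi region that acts in protein trafficking, was higher (7.10 ± 0.638 and 11.1 ± 1.10 CPM, log2 fold change 0.65, SE 0.124, adjusted p = 0.0249). NDN (log2 fold change 0.09, adjusted p = 0.695), SNURF (0.43, adjusted p = 0.641) and the maternally expressed ubiquitin ligase UBE3A (0.09, adjusted p = 0.758) from the same region did not pass. With 1 library left out, CTSZ passed in all 6 fits (log2 fold change 2.05 to 2.36) and STX11 in none of them (edgeR adjusted p 0.0724 to 0.153). MAGEL2 was lost without replicate 2 (0.0984) or 3 (0.0666) labelled H295R and without replicate 2 (0.106) or 3 (0.124) labelled H295R-PM-Ptc+.

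Around PEG10, the calcitonin receptor gene CALCR, which starts at -1081.6 kb relative to PEG10, was lower in all 3 libraries labelled H295R-PM-Ptc+ (27.0 ± 6.44 and 13.2 ± 3.14 CPM, log2 fold change -1.03, SE 0.213, edgeR adjusted p = 0.0347). TFPI2, an inhibitor of serine proteases that starts at -765.3 kb on the same side, was higher (3.25 ± 0.548 and 5.51 ± 0.478 CPM, log2 fold change 0.76, SE 0.162, adjusted p = 0.0396). Neighbours in one domain thus moved in opposite directions. Both calls held with 1 library left out only where that was replicate 1 labelled H295R (edgeR adjusted p 0.00273 for CALCR and 0.0492 for TFPI2), and the values without each of the other 5 lay between 0.0571 and 0.155. With the replicate block 3 more genes around PEG10 passed, PPP1R9A, a neurabin gene, as higher (log2 fold change 0.37, adjusted p = 0.00311), and GNG11, a G protein gamma subunit gene (-0.24, adjusted p = 0.0072), and ASB4, of a ubiquitin ligase family (-0.21, adjusted p = 0.0108), as lower. In other domains the block added ZNF264 near PEG3 (0.21, adjusted p = 0.0266) and CPA4 near MEST (0.67, adjusted p = 0.0197) as higher and ATP5E near GNAS (-0.17, adjusted p = 0.0138) as lower.

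**Figure D4:**
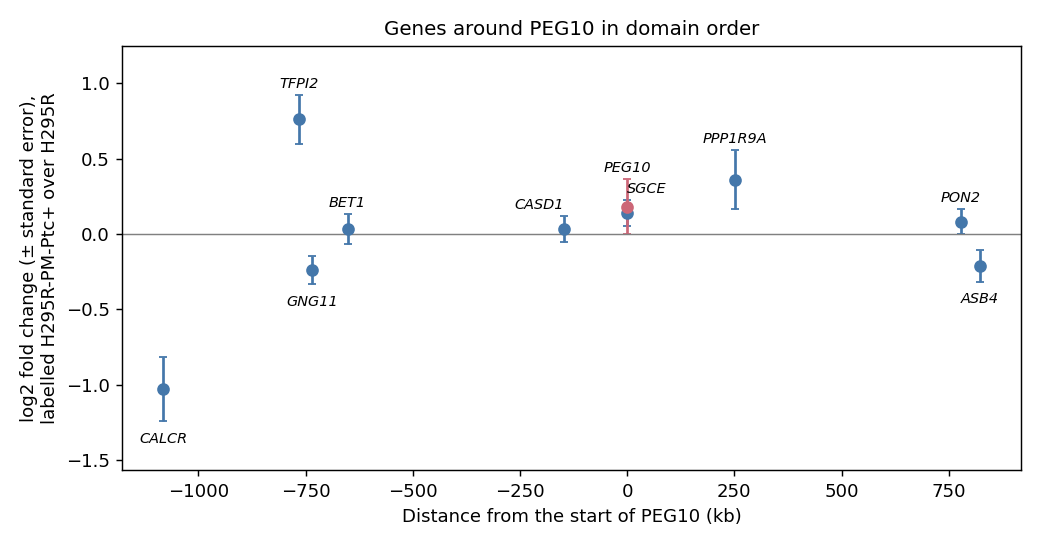
Log2 fold change with its standard error (vertical axis, edgeR fit with group only, labelled H295R-PM-Ptc+ over labelled H295R) of PEG10 (red) and the 9 tested genes of its domain (blue) by distance from the start of PEG10 in kb. CALCR at -1.03 and TFPI2 at 0.76 stand apart, and SGCE next to PEG10 lies at 0.14.

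For comparison, 46 genes listed as imprinted at other loci were taken, of which 35 were tested. Whether each of them is imprinted in these cells was not tested. The list was chosen with earlier results of these data known, so the shares below do not test imprinted genes as a set. Of the 35 tested genes 6 passed, all higher in libraries labelled H295R-PM-Ptc+, beside 3.73% of all tested genes. With the replicate block 16 passed, beside 22.5% of all tested genes, of which 13 were higher and 3 lower. The 3 lower ones, SLC22A3 (-0.40, adjusted p = 7.73e-05), ZDBF2 (-0.25, adjusted p = 0.00732) and NAP1L5 (-0.36, adjusted p = 0.0119), are named after their values were seen. The 6 of the fit without the block were the inflammasome gene NLRP2 (log2 fold change 2.83, SE 0.261, edgeR adjusted p = 8.71e-04), the growth factor receptor adaptor GRB10 (1.49, SE 0.156, adjusted p = 0.00132), the cell adhesion gene NTM (0.91, SE 0.0909, adjusted p = 0.00116), the noncoding RNA H19 (0.79, SE 0.161, adjusted p = 0.0317), the Notch ligand-like gene DLK1 (0.78, SE 0.0933, adjusted p = 0.00245) and the aminopeptidase gene ERAP2 (0.42, SE 0.0758, adjusted p = 0.0192), whose imprinting is not generally established. NLRP2, GRB10, NTM and DLK1 passed without any 1 of the 6 libraries, while H19 and ERAP2 did not pass without replicate 2 or 3 of either group (edgeR adjusted p 0.0641 to 0.144). IGF2, the fetal growth factor that is abundant in these cells, was at 903.8 ± 90.6 and 1126.1 ± 82.2 CPM (log2 fold change 0.32, adjusted p = 0.129, and 0.00115 with the block), and the noncoding RNA MEG3 followed with 0.31 (adjusted p = 0.505, and 0.00112 with the block). The 6 changes that passed ran from 1.34-fold (ERAP2) to 7.10-fold (NLRP2), against 1.28-fold for PLAGL1. The difference between these genes and the 10 was not tested.

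**Figure D5:**
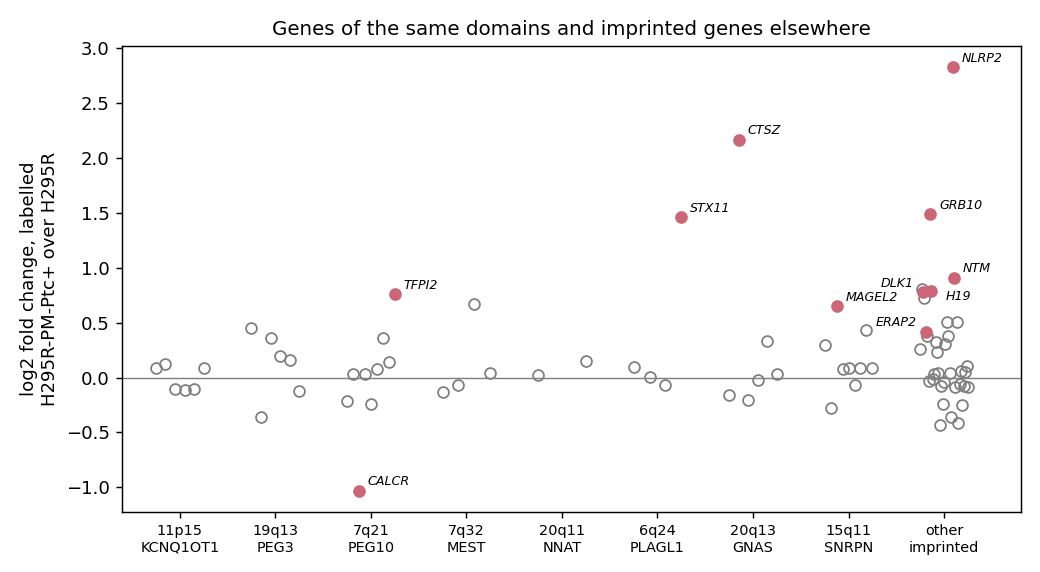
Log2 fold change (vertical axis, labelled H295R-PM-Ptc+ over labelled H295R) of the 46 tested genes in the same domains, by domain, and of the 35 tested imprinted genes elsewhere (last column); filled points passed the edgeR test at an adjusted p under 0.05. Of the domain genes 4 passed as higher and CALCR as lower, and all 6 that passed among the imprinted genes elsewhere were higher.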

How the data were processed

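RNA of 3 replicates per group was sequenced in paired reads. According to the methods and the submitters' processing notes, the authors mapped reads to hg38 with STAR 2.4.0a and used featureCounts to sum the fragments of each Ensembl gene name, with a strand option and with reads of several positions taken at the primary one (the notes name Subread 1.5.0-p3, the methods another release). The deposited counts are raw, 1 column per library. A column of exon lengths was not used for tests, and 1 row without a gene name held 0% of counts.

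All 6 libraries were compared as 3 against 3, as labelled, with the quasi-likelihood F-test of edgeR 4.0.16 in R 4.3.3 (TMM, filterByExpr, group as the only term, two-sided), with Benjamini-Hochberg adjustment over all 16710 tested genes and a threshold of 0.05. Standard errors come from the same fit. CPM use TMM-scaled library sizes. Tables and plots were made with Python 3.11.15, pandas 2.3.3 and matplotlib 3.10.9, and the fits were tested on simulated counts.

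No source says that replicates are separate cultures, so p-values measure the spread between these libraries, which may be technical. Replicates of a group differed by more than sampling noise (chi-square per gene 6.02 to 28.4). Deviations from the group means correlated at 0.497, 0.307 and 0.228 for replicates 1, 2 and 3, and at -0.352 to 0.150 between different numbers. Across replicates 2 and 3 the values were 0.150 and 0.109, so these numbers were less clearly paired than replicate 1. Deviations within a group sum to 0, so a replicate 1 set apart in both groups also shapes the other values. The block takes all numbers to pair the libraries. The study states no pairing, and the block stands as an alternative. The others were DESeq2 1.42.0, limma-voom (limma 3.58.1), RLE size factors, a minimum of 10 counts in each library, no filter, and omission of single libraries. The contrast of replicate 1 was added after seeing the data.

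The 10 genes and the lists were chosen with earlier results of these data known. All 10 genes are named, with every gene of the 2 other lists at an adjusted p under 0.05 (for domain genes also with the block), and a few set by name, such as SGCE and IGF2; 1 gene that the rule names is not reported here. The strand option listed in the methods is the opposite of the one usual for kits of the named type, and whether it was used as listed was not tested, so values of gene pairs on opposite strands are uncertain. Positions are from GENCODE on hg38 and may differ from the authors' annotation. Promoter windows of the other 6 genes were not used here.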

Additional observations from a re-analysis of the deposited data

How the results depend on the processing

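The counts of passing genes, the median of the 10 genes and the log2 fold changes of the 9 tested genes and of PTCH1 and the list genes that the naming rule called were recomputed with DESeq2, limma-voom, RLE size factors, no low-count filter, a minimum of 10 counts in each library, the replicate block and without each library (STX11 did not reach the minimum of 10). Per-kilobase levels, the contrast of replicate 1 and other genes were not. The number of genes passing moved from 624 to 1111 without a filter and to 3758 with the replicate block, and lay between 219 and 810 when 1 library was left out. Of the 10 genes 1 passed in the main fit, 5 with the block and 0 or 1 with a library left out, of the domain genes 5, 12 with the block and 1 to 5 with a library left out, and of the imprinted genes elsewhere 6, 16 with the block and 4 to 7 with a library left out. The median log2 fold change of the tested genes among the 10 lay between -0.12 and 0.01 with a library left out. PLAGL1 passed with DESeq2 (adjusted p = 9.01e-04), limma-voom (0.0232), RLE factors (0.0275), no filter (0.0168) and the higher minimum (0.0285).

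With a library left out the log2 fold change ran from 0.02 to 0.33 for PEG10, -0.22 to -0.03 for SNRPN, -0.29 to 0.05 for PEG3, -0.03 to 0.09 for MEST and -0.08 to 0.20 for ZIM2. Direction changed for PEG3 without replicate 2 labelled H295R (log2 fold change 0.03) and replicate 1 labelled H295R-PM-Ptc+ (0.05), for MEST without replicate 3 labelled H295R (-0.03) and replicate 1 labelled H295R-PM-Ptc+ (-0.01), and for ZIM2 without replicate 1 labelled H295R (-0.08). The cause was not tested. Over the 9 tested genes and all settings, 94 of 108 values kept direction and side of the threshold, 5 lost the call, 4 gained it and 5 turned. The 5 lost calls are those of PLAGL1 with a library left out, and the 4 gained calls those of the block. CDKN1C, ZIM2 and KCNQ1OT1 had at most 171 counts in a library, and NNAT was not detected. The part of depth in their results was not tested. Apart from the calls named here and beside the results, the block changed no call among the 10 genes.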
